A study of Mus musculus with 4 samples.

Results

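Acute phase and plasma protein genes of hepatocytes were followed in liver mononuclear cell preparations, as 10 genes of the 31053 in each count table. Of these, *Saa1*, *Saa2*, *Saa3*, *Orm1*, *Hp*, *Hpx* and *Fgb* encode acute phase proteins, and *Alb*, *Apoa1* and *Ttr* encode proteins that the liver secretes at all times. The 10 genes were chosen by name with their measured levels in these libraries already known. Cells were selected on the summed UMIs of *Alb*, *Apoa1*, *Apoa2* and *Ttr*, and a cell in which these 4 genes made up at least 1% of its UMIs is called hepatocyte-gated. This gave 220 hepatocyte-gated cells of 9300, namely 15 of 2086 in Naïve, 10 of 2779 in ConA+Veh, 1 of 1880 in ConA+TCDD and 194 of 2555 in ConA+FICZ. The levels of *Alb*, *Apoa1* and *Ttr* in gated cells are fixed in part by this gate and are given as descriptions.

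The cells came from livers of C57BL/6 mice aged 8 to 10 weeks, after dissociation and a density gradient that enriches mononuclear cells, so a hepatocyte in these libraries is a cell that the preparation was meant to remove. Naïve mice received no ConA. The other groups all received concanavalin A (ConA), a plant lectin that activates T cells and injures the liver, and then vehicle (ConA+Veh), TCDD, a dioxin (ConA+TCDD), or FICZ (ConA+FICZ). TCDD and FICZ are ligands of the aryl hydrocarbon receptor, and the cells were taken 24 hours after ConA. Each group is 1 library of a 5′ droplet assay, and the number of mice in a library was not given in the sources used here. The libraries held 5952445, 19252211, 12077209 and 16017797 UMIs (unique molecular identifiers, 1 per captured RNA molecule) in the order in which the gated cells were just given, which is kept below, and each pair of libraries shared between 4 and 15 cell barcodes, of which none was gated in both. With 1 library per group no difference between groups has a replicate check, no test was made, and all comparisons are between libraries. Levels are summed UMIs of a gene per 1000000 UMIs of the same cells (CPM), and ranges in parentheses are exact 95% intervals (Poisson for a level, Clopper-Pearson for a share, conditional binomial for a ratio) that cover counting error only.

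Hepatocytes make most plasma proteins. In the acute phase response, cytokines of the IL-6 and IL-1 families, released by leukocytes and stromal cells, bind receptors on hepatocytes and switch on genes through STAT3, C/EBP and NF-kB, while some constitutive plasma proteins such as albumin are made less. Serum amyloid A, which *Saa1* and *Saa2* encode, is among the proteins that increase most in plasma, and *Saa3* is known to be made also outside the liver, in macrophages and stromal cells.

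Promoters are shown for the 3 serum amyloid A genes, because *Saa1* and *Saa2* are similar copies whose reads the counting could split, and for *Fgb*, because its window alone among those of 7 members held a match to the STAT motif. They run from 250 bases before to 50 bases after the RefSeq start (GRCm38.p6), 5′ to 3′ on the gene's own strand, at chr7:46742931-46743230 on the minus strand for *Saa1*, chr7:46751583-46751882 on the plus strand for *Saa2*, chr7:46715627-46715926 on the minus strand for *Saa3* and chr3:83049814-83050113 on the minus strand for *Fgb*. Capitals mark matches on either strand to the C/EBP core (TTNNGNAA), the STAT motif (TTCNNNGAA) or the NF-kB motif (GGNNTTNCC).
Saa1: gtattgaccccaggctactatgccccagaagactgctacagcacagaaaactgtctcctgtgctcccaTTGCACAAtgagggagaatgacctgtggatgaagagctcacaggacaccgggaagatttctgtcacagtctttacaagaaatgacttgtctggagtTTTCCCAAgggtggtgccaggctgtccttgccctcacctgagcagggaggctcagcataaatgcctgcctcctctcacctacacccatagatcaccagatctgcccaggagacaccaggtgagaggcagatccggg
Saa2: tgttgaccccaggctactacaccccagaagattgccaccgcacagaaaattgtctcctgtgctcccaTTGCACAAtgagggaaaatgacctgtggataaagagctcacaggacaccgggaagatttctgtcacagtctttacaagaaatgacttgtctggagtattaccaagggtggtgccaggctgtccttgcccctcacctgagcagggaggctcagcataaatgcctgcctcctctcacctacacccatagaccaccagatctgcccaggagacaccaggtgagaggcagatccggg
Saa3: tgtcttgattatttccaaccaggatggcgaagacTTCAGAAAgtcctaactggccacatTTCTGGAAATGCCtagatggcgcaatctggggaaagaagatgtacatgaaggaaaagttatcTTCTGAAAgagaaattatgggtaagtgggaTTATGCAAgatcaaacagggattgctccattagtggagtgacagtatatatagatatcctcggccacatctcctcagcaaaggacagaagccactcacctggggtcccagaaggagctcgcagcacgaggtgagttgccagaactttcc
Fgb: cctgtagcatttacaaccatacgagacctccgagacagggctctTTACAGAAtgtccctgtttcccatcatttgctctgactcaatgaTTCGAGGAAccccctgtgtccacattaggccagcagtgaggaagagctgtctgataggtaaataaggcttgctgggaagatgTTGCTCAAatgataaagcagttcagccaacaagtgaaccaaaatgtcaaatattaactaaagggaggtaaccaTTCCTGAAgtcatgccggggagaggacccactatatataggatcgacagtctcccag

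The *Saa1* and *Saa2* windows were 95.3% identical and those of *Saa1* and *Saa3* 50.9%. Over the longest annotated coding transcripts, *Saa1* and *Saa2* were 87.3% identical, and over the first 300 bases of those transcripts, nearest the 5′ end that the assay reads, 69.7%. Identity is given over all alignment columns, gaps included, and the 69.7% was 241 identical bases in 346 columns. Over paired bases alone it is higher, so 69.7% does not show that the 5′ ends are easier to tell apart. How far the counting split reads between *Saa1* and *Saa2* is not known, so the separate values of these 2 genes are uncertain. Of the 10 members, 7 had a promoter in the RefSeq table. The C/EBP core occurred in 6 of these 7 windows, all but that of *Apoa1*, with 4 matches each in *Saa3* and *Alb*, 3 in *Fgb*, 2 in *Saa1* and *Hpx* and 1 in *Saa2*, but 40.7% of all 32851 promoters of that length hold it. The STAT motif, in 8.30% of all promoters, occurred once, in *Fgb*. The NF-kB motif, in 16.0% of all promoters, occurred once, in *Saa3*, where it overlaps a C/EBP core match. These are letter matches and not known binding sites. In the GENCODE annotation (GRCm38) the 7 genes are protein-coding. *Saa3*, *Saa1* and *Saa2* lie within one stretch of chromosome 7, at 46711998 to 46715700, 46740497 to 46742980 and 46751790 to 46754313. *Hpx* lies further along chromosome 7 at 105591613 to 105600137, *Fgb* on chromosome 3 at 83040141 to 83049863, *Alb* on chromosome 5 at 90460897 to 90476602 and *Apoa1* on chromosome 9 at 46228580 to 46230466.

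As a share of all cells, the gated cells were at 0.719% (0.403 to 1.18%), 0.360% (0.173 to 0.661%), 0.0532% (0.00135 to 0.296%) and 7.59% (6.60 to 8.69%). They held 25572, 26020, 631 and 304192 UMIs in all, with medians of 1017, 2054, 631 and 951 UMIs per cell. As a check of the name, 12 genes of hepatocyte metabolism that are neither members nor gate genes made up 4.31%, 0.277%, 0.634% and 0.740% of the UMIs of gated cells, against at most 0.0138% in B or T cells of any library. The gated cells of ConA+Veh were the least clean, since 6 of 10 had at least 2 UMIs of a list of 12 leukocyte genes and 2 met the marker rule for B cells, whereas in ConA+FICZ 6 of 194 cells had such UMIs and 4 met the rule of another class. In Naïve and ConA+TCDD no gated cell did either. No mitochondrial UMI was found in 9 of 15 gated cells in Naïve, 0 of 10 in ConA+Veh, the 1 cell in ConA+TCDD and 139 of 194 in ConA+FICZ. In ConA+FICZ the summed acute phase UMIs per *Alb* and *Apoa1* UMI were 3.82 in the cells without a mitochondrial UMI and 4.22 in the others. In Naïve they were 0.389 in the 9 cells without and 0.142 in the other 6, and the 9 include the only Naïve gated cell with *Saa* UMIs.

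The 1% gate fell at different places of the 4 distributions. In ConA+FICZ no cell lay between 1% and 2%, and 15 cells lay between 0.5% and 1%, with 2.38% of their UMIs from the 7 acute phase genes and 0.536% from *Alb* and *Apoa1*. In Naïve 7 cells lay just inside, at 0.728% and 0.836%, and 11 just outside, at 0.154% and 0.352%. In ConA+Veh 3 cells lay just inside, at 1.02% and 1.14%, and 4 just outside, at 0.884% and 0.347%. The gated cells of ConA+FICZ thus formed a separate group, with at least 2.59% of gate gene UMIs, and those of Naïve and ConA+Veh ran on into the ungated cells. The middle 50% of the ConA+FICZ cells lay between 5.02% and 6.21%, against 1.45% to 2.79% in Naïve and 2.12% to 9.09% in ConA+Veh, and 104 of the 194 had under 1000 UMIs. Whether each of these barcodes was a whole cell was not tested, and no doublets were removed.

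**Figure D1:**
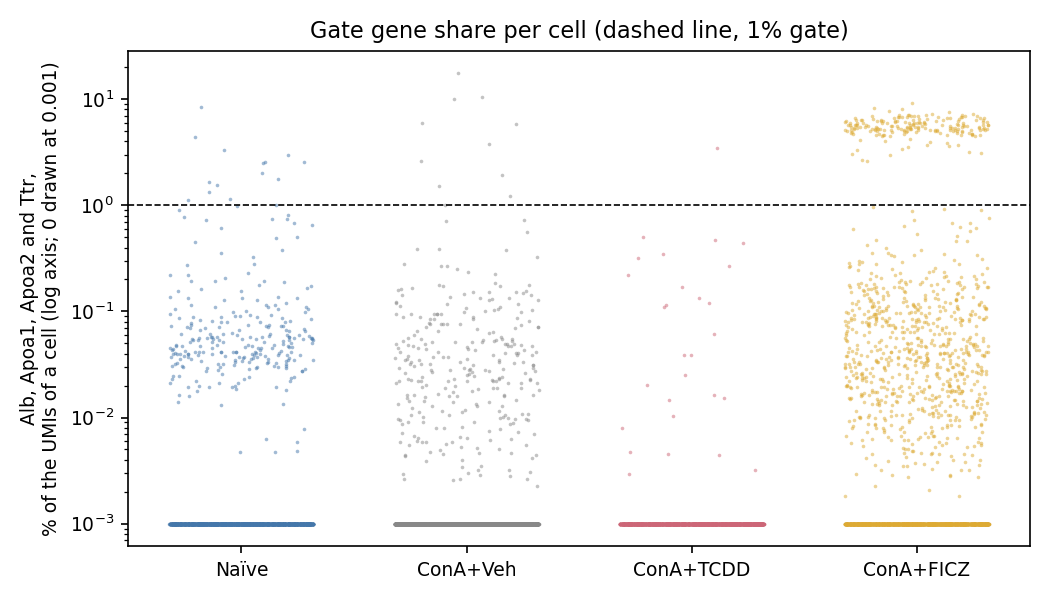
Share of each cell's UMIs from *Alb*, *Apoa1*, *Apoa2* and *Ttr* (y axis, percent, log scale, cells at 0 drawn at 0.001) in the 4 libraries (x axis), 1 point a cell, with the 1% gate dashed. The 194 gated cells of ConA+FICZ lie apart, at or above 2.59%, and the 15, 10 and 1 gated cells of the other libraries are scattered.

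*Saa1* and *Saa2* are the serum amyloid A genes known from the liver's acute phase response. *Saa1* had 13, 198, 14 and 9984 UMIs in the gated cells, which are 508 (271 to 869), 7609.5 (6586 to 8746), 22187 (12130 to 37226) and 32821 (32181 to 33472) CPM. *Saa2* had 4, 192, 32 and 11570 UMIs, at 156 (42.6 to 400.5), 7379 (6372 to 8499.7), 50713 (34688 to 71592) and 38035 (37345 to 38735) CPM. For both genes the intervals of Naïve, ConA+Veh and ConA+FICZ were apart, and that of the 1 ConA+TCDD cell included the ConA+FICZ level. In Naïve a single cell of 525 UMIs, with 4 *Alb* UMIs, held all 18 UMIs of the 3 *Saa* genes, and the other 14 gated cells had none. In ConA+Veh every gated cell had a UMI of *Saa1* and *Saa2*, but 1 cell of 7101 UMIs held 278 of the 432 *Saa* UMIs. All 194 gated cells of ConA+FICZ had both transcripts.

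*Saa3*, the third serum amyloid A gene, was lower than its neighbours in every library, with 1, 42, 3 and 1154 UMIs. Its levels were 39.1 (0.990 to 218), 1614 (1163 to 2182), 4754 (980 to 13894) and 3794 (3578 to 4019) CPM. *Orm1*, which encodes orosomucoid, an acute phase carrier protein, had 16, 115, 17 and 5600 UMIs, at 626 (358 to 1016), 4419.7 (3649 to 5305), 26941 (15694 to 43136) and 18409 (17930 to 18898) CPM. Both genes had the order Naïve, ConA+Veh, ConA+FICZ with intervals apart, and the single ConA+TCDD cell did not differ from ConA+FICZ beyond its counting error.

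Haptoglobin and hemopexin, encoded by *Hp* and *Hpx*, bind the haemoglobin and haem that lysed red cells release. *Hp* had 20, 204, 11 and 6540 UMIs, at 782 (478 to 1208), 7840.1 (6801 to 8993), 17433 (8702 to 31192) and 21500 (20982 to 22027) CPM. *Hpx* had 29, 318, 6 and 4726 UMIs, at 1134 (759 to 1629), 12221 (10915 to 13641), 9509 (3490 to 20697) and 15536 (15096 to 15986) CPM. *Fgb*, the beta chain of the clotting protein fibrinogen, had 15, 354, 8 and 6411 UMIs, at 587 (328 to 967), 13605 (12224 to 15099), 12678 (5474 to 24981) and 21076 (20563 to 21598) CPM. The ConA libraries thus lay above Naïve for all 3 genes, and for *Hpx* and *Fgb* the ConA+TCDD cell was near ConA+Veh, with an interval that also covered ConA+FICZ.

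*Alb* (albumin) had 402, 676, 14 and 7255 UMIs, at 15720.3 (14221 to 17335), 25980 (24058 to 28015), 22187 (12130 to 37226) and 23850.1 (23304 to 24405) CPM. *Apoa1*, the main protein of high-density lipoprotein, had 37, 141, 2 and 4296 UMIs, at 1447 (1019 to 1994), 5419 (4561 to 6391), 3170 (384 to 11450) and 14123 (13704 to 14551) CPM. *Ttr* (transthyretin, a carrier of thyroid hormone) had 98, 103, 1 and 1807 UMIs, at 3832 (3111 to 4670), 3958 (3231 to 4801), 1585 (40.1 to 8830) and 5940.3 (5670 to 6221) CPM. The levels of these gate genes, fixed in part by the gate, spanned a narrower range than those of the acute phase genes, except that *Apoa1* in ConA+FICZ was well above the other libraries. This narrower range is therefore no finding about the genes. In Naïve *Alb* had 402 UMIs to the 13 of *Saa1*, and in ConA+FICZ *Saa1* had 1.38 and *Saa2* 1.59 UMIs for each *Alb* UMI.

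**Figure D2:**
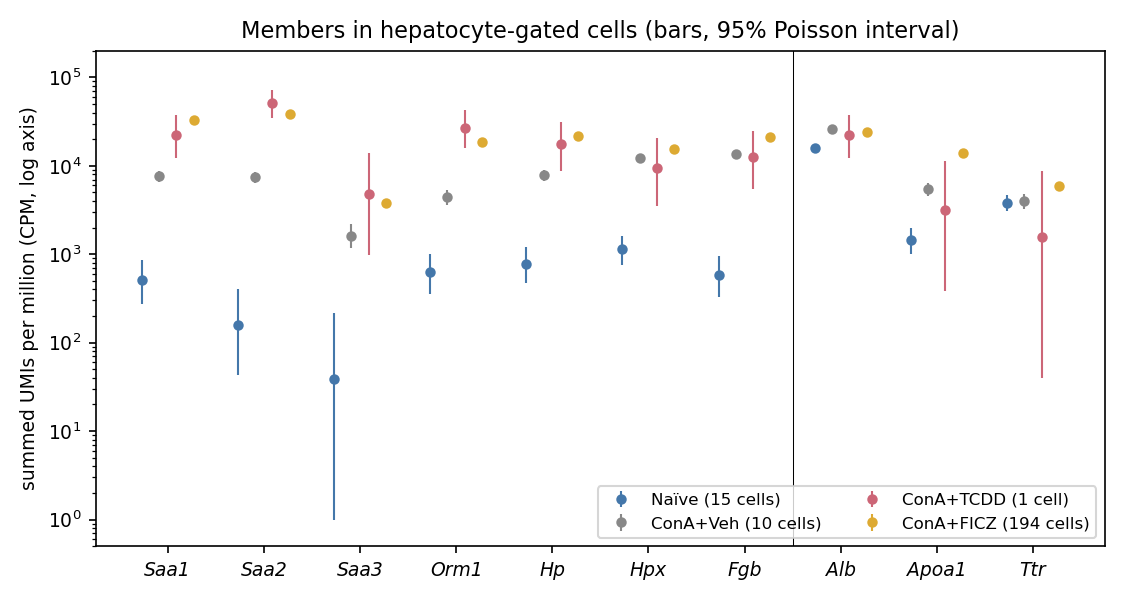
Level of each member (x axis) in hepatocyte-gated cells as CPM of summed UMIs (y axis, log scale) by library, with exact 95% Poisson intervals as bars. The 7 acute phase genes left of the line are lowest in Naïve. *Alb*, whose level the gate fixes in part, lies between 15720.3 and 25980 CPM in the 4 libraries, and the ConA+TCDD points rest on 1 cell.

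As a log2 ratio of CPM, ConA+Veh over Naïve was 3.90 (3.10 to 4.84) for *Saa1*, 5.56 (4.18 to 7.45) for *Saa2*, 5.37 (2.81 to 10.70) for *Saa3* on 1 Naïve UMI, 2.82 (2.06 to 3.67) for *Orm1*, 3.33 (2.66 to 4.07) for *Hp*, 3.43 (2.88 to 4.03) for *Hpx* and 4.54 (3.79 to 5.39) for *Fgb*. It was 0.72 (0.54 to 0.91) for *Alb*, 1.91 (1.37 to 2.47) for *Apoa1* and 0.05 (−0.37 to 0.46) for *Ttr*. The smallest acute phase ratio, that of *Orm1*, lay above the largest of the gate genes, that of *Apoa1*, although their intervals overlap and the gate fixes the level of *Apoa1* in part. Of the 7 acute phase members 6 had at least 50 UMIs in both libraries together, *Saa3* being the exception, and all 6 were at least 2-fold higher, while of all 178 genes with as many UMIs 30.9% were at least 2-fold higher and 32.0% at least 2-fold lower. Genes with few Naïve UMIs passed this minimum only through ConA+Veh, so the count is a description. Of *Alb*, *Apoa1* and *Ttr*, *Apoa1* alone was at least 2-fold higher, and its ratio turned to −0.71 with a 5% gate, which left 1 Naïve and 5 ConA+Veh cells.

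ConA+FICZ over ConA+Veh was 2.11 (1.91 to 2.32) for *Saa1*, 2.37 (2.16 to 2.58) for *Saa2*, 1.23 (0.79 to 1.71) for *Saa3*, 2.06 (1.79 to 2.34) for *Orm1* and 1.46 (1.25 to 1.66) for *Hp*. *Hpx* at 0.35 (0.18 to 0.51) and *Fgb* at 0.63 (0.48 to 0.79) were below 2-fold, and so were *Alb* at −0.12 (−0.24 to −0.01) and *Ttr* at 0.59 (0.30 to 0.89), whereas *Apoa1* was at 1.38 (1.14 to 1.63). The ConA+Veh cell of 7101 UMIs held 193 of the 318 *Hpx* and 155 of the 354 *Fgb* UMIs of that library's gated cells. It also held 128 of 204 for *Hp*, 73 of 115 for *Orm1* and 276 of 676 for *Alb*. Which members passed 2-fold therefore rests in part on 1 cell, which the intervals do not cover. In this comparison 48.1% of 796 genes were at least 2-fold higher and 7.04% at least 2-fold lower, with a median log2 ratio of 0.95, so that the 5 of 7 acute phase members past 2-fold stand against a background that was itself high. *Saa1*, *Saa2* and *Orm1* lay above that median and *Alb* below it, each by more than 2-fold. The gate fixes the level of *Alb* in part, so its place below the median is no finding about the gene. Many genes reached 50 UMIs only through ConA+FICZ, which has more gated cells, and its cells and those of ConA+Veh differed in leukocyte and mitochondrial UMIs as given above. The difference in the acute phase ratio between these libraries, given below as 1.19, was 0.80 without the gated cells that have leukocyte UMIs, 1.18 without those over 20% mitochondrial UMIs and 1.28 without those that have 0.

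ConA+TCDD over ConA+Veh, from 1 cell, was 1.54 (0.65 to 2.32) for *Saa1*, 2.78 (2.19 to 3.33) for *Saa2*, 2.61 (1.78 to 3.35) for *Orm1* and 1.15 (0.13 to 2.02) for *Hp*. The intervals of the other 6 members included 0, with −0.36 (−1.82 to 0.78) for *Hpx*, −0.10 (−1.32 to 0.89) for *Fgb* and −0.23 (−1.11 to 0.53) for *Alb*. Of the 6 acute phase members with enough UMIs 4 were at least 2-fold higher, against 27.3% of 88 genes at least 2-fold higher and 12.5% at least 2-fold lower. A gene with 0 UMIs in this cell was set at 3 UMIs, or 4754 CPM. The share of higher genes can therefore include genes not found in the cell, and the count is a description. A single cell shows what that cell held and not the level in the hepatocytes of that liver.

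The summed UMIs of the 7 acute phase genes per UMI of *Alb* and *Apoa1* compare the genes within the same cells, whatever the other UMIs of those cells. *Alb* and *Apoa1* are also gate genes, so the gate fixes this denominator in part. Just inside the gate the acute phase UMIs were 47 against 54 in Naïve and 121 against 135 in ConA+Veh. Just outside they were 25 against 57 and 135 against 53. Of the 47 in Naïve, 18 were the *Saa* UMIs of 1 cell, in which acute phase genes made up 6.48% of UMIs. All 3 ConA+Veh cells just inside had at least 2 leukocyte UMIs, so the sums at the gate rest on few and mixed cells. Over all gated cells the ratio was 0.223 in Naïve (98 against 439 UMIs), 1.74 in ConA+Veh (1423 against 817), 5.69 in ConA+TCDD (91 against 16) and 3.98 in ConA+FICZ (45985 against 11551). On the log2 scale it was −2.16 (−2.49 to −1.84), 0.80 (0.68 to 0.93), 2.51 (1.73 to 3.37) and 1.99 (1.96 to 2.02), so that *Alb* and *Apoa1* outnumbered the acute phase transcripts in Naïve and the reverse held in each ConA library. The difference was 2.96 (2.62 to 3.30) for ConA+Veh minus Naïve, 1.19 (1.07 to 1.32) for ConA+FICZ minus ConA+Veh and 1.71 (0.93 to 2.48) for ConA+TCDD minus ConA+Veh. The first ranged from 1.72, with every cell weighted equally, to 3.92, with a 5% gate that left 1 Naïve cell, and was 3.57 without the Naïve cell that held the *Saa* UMIs. Without the ConA+Veh cell of 7101 UMIs it was 2.46, and that of ConA+FICZ minus ConA+Veh was 1.70.

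Cells of one library varied around these sums. The acute phase share of a cell's UMIs had its lowest, median and highest value at 0%, 0.269% and 6.48% in Naïve, 0.619%, 6.49% and 11.6% in ConA+Veh and 3.07%, 15.2% and 25.2% in ConA+FICZ, and was 14.4% in the ConA+TCDD cell. The share of *Alb* and *Apoa1* was 0.575%, 1.53% and 3.44% in Naïve, 0.932%, 3.26% and 14.1% in ConA+Veh and 1.72%, 3.98% and 7.04% in ConA+FICZ. The acute phase shares of Naïve and ConA+FICZ overlapped only through the 1 Naïve cell with *Saa* UMIs. Those of *Alb* and *Apoa1* overlapped through more Naïve cells but were also lower in Naïve. Their Naïve median of 1.53% lay below the lowest ConA+FICZ share of 1.72%. Their highest Naïve share of 3.44% lay below the ConA+FICZ median of 3.98%. Among the 194 cells of ConA+FICZ, the variance of the counts over that expected from counting alone was 3.70 for *Saa1*, 3.84 for *Saa2*, 2.37 for *Orm1*, 3.12 for *Hp*, 3.01 for *Hpx*, 3.16 for *Fgb* and 3.37 for *Alb*, against 1.53 for *Saa3*, 1.80 for *Apoa1* and 1.43 for *Ttr*. The last 3 had fewer UMIs than the other members. Of 2 genes that are not members, *Fga* with 5766 UMIs was at 2.83 and *Lcn2* with 4826 was at 1.52. Whether the number of UMIs accounts for the lower values was not tested. From the 5th to the 95th percentile of cells, *Saa1* ranged from 1.82% to 4.40% and *Alb* from 1.45% to 3.66% of UMIs.

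**Figure D3:**
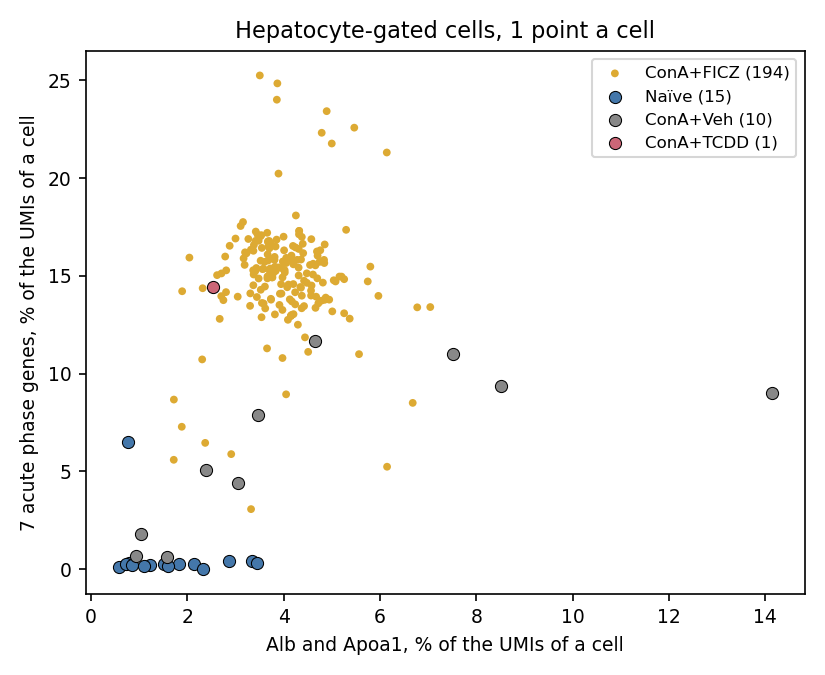
Each point is 1 hepatocyte-gated cell, with the share of its UMIs from *Alb* and *Apoa1* (x axis, percent) and from the 7 acute phase genes (y axis, percent), coloured by library. Of the Naïve cells 1 stands above the rest at 6.48%, the ConA+FICZ cells lie between 3.07% and 25.2% with a median of 15.2%, and the 10 ConA+Veh cells are spread from 0.619% to 11.6%.

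Other acute phase genes in gated cells were read from a list of 20 that are not members. In ConA+Veh over Naïve, 7 had at least 50 UMIs, of which 6 were at least 2-fold higher and 0 lower, in ConA+FICZ over ConA+Veh 8 of 18 were higher and 2 lower, and in ConA+TCDD over ConA+Veh 3 of 7 were higher and 1 lower, beside the shares of all genes given above. Genes with few Naïve UMIs passed the minimum only through ConA+Veh in the first comparison, so its count and median are descriptions. The median log2 ratios were 4.33, 0.92 and −0.28. In the 1 ConA+TCDD cell these genes thus did not share the members' median of 1.35. The most abundant was *Fga*, the alpha chain of fibrinogen, at 391, 5765, 4754 and 18955 CPM. *Lcn2* (lipocalin 2, which binds bacterial iron carriers) was at 235, 4727, 9509 and 15865 CPM, *Fgg* (fibrinogen gamma chain) at 274, 5611, 3170 and 12808 CPM, and *Hamp* (hepcidin, which lowers plasma iron) at 1017, 1806, 17433 and 9083 CPM. All 4 were lowest in Naïve, and *Hamp* differed less than the others between Naïve and ConA+Veh. In the ConA+TCDD cell *Fga*, *Lcn2*, *Fgg* and *Hamp* had 3, 6, 2 and 11 UMIs.

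A list of 18 constitutive genes of hepatocytes, mostly of plasma proteins, differed in both directions. In ConA+Veh over Naïve 6 of 12 with enough UMIs were at least 2-fold higher and 2 lower, beside 30.9% and 32.0% of all genes, and in ConA+FICZ over ConA+Veh 4 of 18 were higher and 4 lower, beside 48.1% and 7.04%. Genes of this list with few Naïve UMIs passed the minimum only through ConA+Veh, so the first count is a description. The list holds *Apoa2*, a gate gene, whose level in gated cells is fixed in part by the gate. *Fabp1*, which encodes a fatty acid binding protein that stays inside the cell and is not secreted, was at 12162, 1038, 0 and 11282 CPM, so that ConA+Veh was below both Naïve and ConA+FICZ. A gene at 0 in the ConA+TCDD cell could be at up to 4754 CPM, the level of 3 UMIs. *Apoa2*, *Apoc3* and *Ahsg*, which encode 2 apolipoproteins and fetuin A, were at 3911, 4727, 7924 and 9777, at 3911, 4381, 4754 and 8242 and at 3676, 3843, 0 and 8166 CPM. The ConA+TCDD values of *Apoa2* and *Apoc3* rest on 5 and 3 UMIs. Of the 12 metabolism genes 5 had enough UMIs in ConA+Veh over Naïve, and all 5 were at least 2-fold lower, beside 32.0% of all genes tested, but they reached the minimum through their Naïve UMIs, so this count too is a description. *Ass1*, a urea cycle enzyme, was at 26513, 346, 0 and 1203 CPM, *Fbp1* (a gluconeogenic enzyme) at 3363, 154, 3170 and 901 CPM and *Hpd* (tyrosine breakdown) at 5084, 154, 0 and 749.5 CPM. The ConA+Veh values rest on 9, 4 and 4 UMIs. That of *Fbp1* in ConA+TCDD rests on 2 UMIs, below the level of 3 UMIs, and does not show that its Naïve level was kept. In ConA+FICZ over ConA+Veh 5 of 7 were at least 2-fold higher, beside 48.1% of all genes.

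Genes of the IL-6 and IL-1 pathway had few UMIs in gated cells, where the 12 listed genes held 7, 19, 0 and 128 UMIs together. *Cebpb*, a C/EBP factor, had 5, 1, 0 and 52 UMIs, *Nfkbia*, an inhibitor of NF-kB, 2, 11, 0 and 18, *Stat3* 0, 3, 0 and 19, and *Cebpd* 0, 0, 0 and 10. In ConA+FICZ, where 3 UMIs would be 9.86 CPM, *Cebpb* was at 171 (128 to 224), *Stat3* at 62.5 (37.6 to 97.5) and *Nfkbia* at 59.2 (35.1 to 93.5) CPM. The ligands were measured in other cells, and *Il6* and *Il1b* are named here after their values had been seen. In mononuclear phagocytes *Il6* had 0 UMIs (0 to 8.18 CPM) in Naïve, where 3 UMIs would be 6.66 CPM. It was at 9.58 (6.14 to 14.3), 24.1 (15.1 to 36.5) and 19.5 (13.8 to 26.7) CPM in the ConA libraries. *Il1b* was at 242, 449, 299 and 311 CPM in these cells and at 3339.6 (2838 to 3905), 2238 (2064 to 2423), 2505 (2151 to 2900) and 2422 (2302 to 2546) CPM in neutrophils. *Il6* in mononuclear phagocytes thus appeared in the ConA libraries only, at low levels, and *Il1b* was present in Naïve as well. *Il6* in neutrophils was at 0, 114 (77.2 to 161), 0 and 22.1 (12.1 to 37.1) CPM, where 3 UMIs would be 63.8 CPM in Naïve and 42.0 CPM in ConA+TCDD. In the few stromal cells, where ConA+Veh and ConA+TCDD had their highest levels, it was at 0, 229.8 (144 to 348), 167 (97.0 to 267) and 0 CPM, where 3 UMIs would be 149 CPM in Naïve and 192 CPM in ConA+FICZ. No gated cell of any library had an *Il6* UMI.

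Outside the gate, cells were put in classes by marker genes. A class needs UMIs of at least 2 of its markers and 3 times the UMIs of any other list. The B class, marked by *Cd79a* and *Cd79b*, held 1094, 850, 433 and 805 cells, and the T class, marked by *Cd3e* and *Trbc2*, held 556, 842, 709 and 585. Lymphocytes are not known to transcribe plasma protein genes, so UMIs of the members in these classes are read as free RNA or as mixed droplets. *Alb* was at 28.4 (22.4 to 35.5), 8.55 (6.16 to 11.6), 4.03 (1.84 to 7.66) and 65.2 (57.9 to 73.2) CPM in B cells and at 19.0 (13.4 to 26.2), 5.34 (3.94 to 7.08), 8.66 (6.59 to 11.2) and 27.4 (23.7 to 31.6) CPM in T cells. *Saa1* was at 2.21 (0.812 to 4.82), 8.76 (6.34 to 11.8), 0 and 109 (99.3 to 119) CPM in B cells, where 3 UMIs in ConA+TCDD would be 1.34 CPM, and at 1.03 (0.124 to 3.71), 4.34 (3.09 to 5.93), 0.734 (0.238 to 1.71) and 44.6 (39.8 to 49.8) CPM in T cells. ConA+FICZ, the library with 194 gated cells, had the most of both in both classes.

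T cells were thinned to 1000 UMIs each, which left out 39, 22, 15 and 17 shallower cells. At this depth *Saa1* was found in 0.193% (0.00490 to 1.07%), 0.732% (0.269 to 1.59%), 0.144% (0.00365 to 0.80%) and 8.45% (6.30 to 11.0%) of T cells and *Alb* in 1.93% (0.931 to 3.53%), 0.976% (0.422 to 1.91%), 0.432% (0.0892 to 1.26%) and 6.34% (4.48 to 8.67%). Unthinned, at medians of 2578, 6804, 6019 and 8003 UMIs, the shares were 0.18%, 4.51%, 0.564% and 25.8% for *Saa1* and 5.40%, 4.63%, 0.987% and 20.3% for *Alb*. The ConA+FICZ library stood apart for both genes at equal depth. In ConA+TCDD the *Alb* UMIs were not diffuse, since 53 of the 59 in T cells lay in 3 of 709 cells.

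The ratio of acute phase to *Alb* and *Apoa1* UMIs could be read from this RNA too. In B cells it was 0.506 (45 against 89 UMIs), 3.39 (217 against 64), 0.667 (6 against 9) and 4.80 (2179 against 454), and in T cells 0.457 (21 against 46), 3.38 (220 against 65), 0.629 (44 against 70) and 5.39 (1492 against 277). The log2 difference of ConA+Veh minus Naïve was 2.75 (2.09 to 3.40) in B cells and 2.89 (2.05 to 3.74) in T cells, beside the 2.96 of the gated cells. ConA+FICZ minus ConA+Veh was 0.50 (0.07 to 0.93) and 0.67 (0.23 to 1.11), smaller than the 1.19 of the gated cells. ConA+TCDD minus ConA+Veh was −2.35 (−3.89 to −0.80) and −2.43 (−3.10 to −1.75), of opposite sign to the 1.71 of its 1 gated cell. Both values rest on few cells. In T cells the value was −0.77 when cells with more than 5 gate gene UMIs were left out, and in B cells, where 6 of the 9 *Alb* UMIs lay in 1 cell and *Apoa1* had none, it was −1.58. The lymphocyte RNA of a library and its gated cells come from the same suspension and are not independent samples.

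The proportions of the members were also compared between classes of a library. In ConA+FICZ, where counts were highest, the UMIs of each member per *Alb* UMI in B cells differed from those in gated cells by between −0.29 (*Ttr*) and 0.67 (*Hpx*) on the log2 scale, and in T cells by between −0.42 (*Apoa1*) and 0.54 (*Orm1*). For *Saa1* these differences were 0.28 (0.06 to 0.49) and 0.24 (−0.02 to 0.50). Some intervals did not include 0, such as those in B cells of *Hpx* at 0.67 (0.43 to 0.91), *Orm1* at 0.38 (0.14 to 0.62) and *Fgb* at 0.36 (0.13 to 0.59). Which cells the RNA in lymphocytes came from was not tested. In ConA+Veh, in which the gated cells were few, *Saa1* per *Alb* was higher in B cells by 1.81 (1.15 to 2.46) and in T cells by 1.47 (0.82 to 2.12) than in gated cells.

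**Figure D4:**
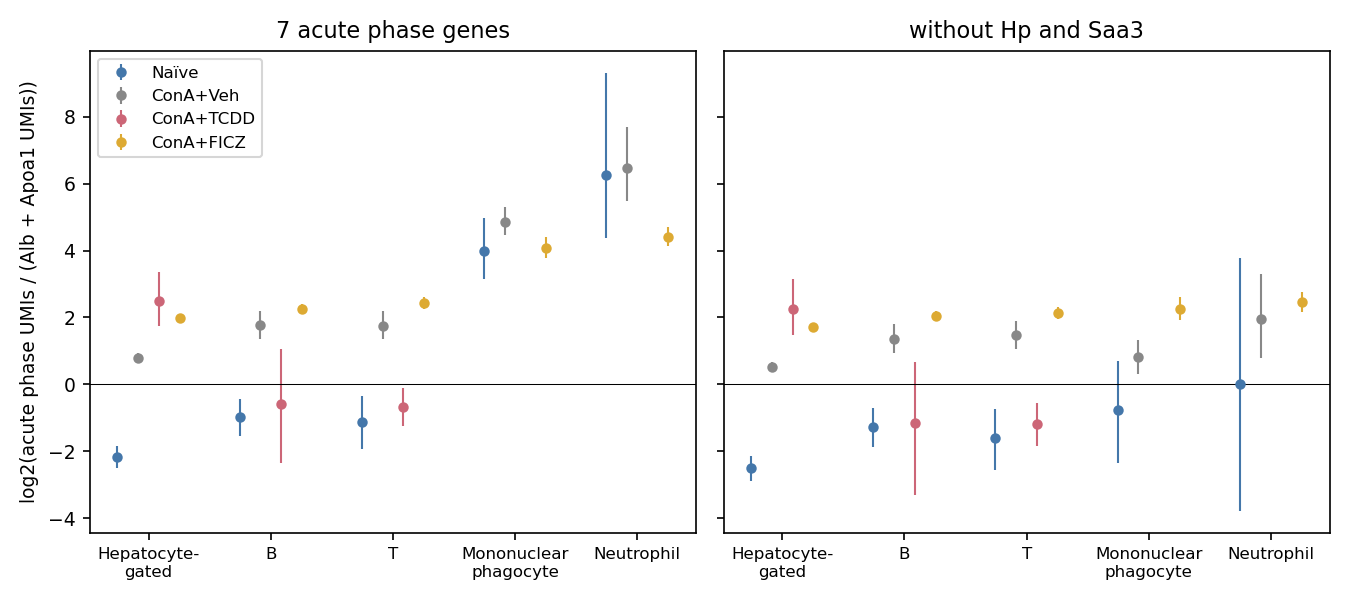
Log2 ratio of acute phase UMIs to *Alb* and *Apoa1* UMIs (y axis) by cell class (x axis) and library, for all 7 genes (left) and without *Hp* and *Saa3* (right), with exact 95% intervals as bars and classes without *Alb* and *Apoa1* UMIs left out. With all 7 genes the myeloid classes lie far above the lymphocytes, at 4.0 for Naïve mononuclear phagocytes against −0.98 for Naïve B cells, and without *Hp* and *Saa3* this falls to −0.78.

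*Hp* in both myeloid classes and *Saa3* in mononuclear phagocytes were far above their proportion to *Alb* in gated cells, in the libraries where these classes had *Alb* UMIs. Mononuclear phagocytes, a class of monocytes, macrophages and like cells marked by *Csf1r* and *Cd68*, numbered 86, 268, 65 and 238, and neutrophils, marked by *Csf3r* and *Cxcr2*, numbered 22, 95, 35 and 247. *Hp* was at 3233 (2740 to 3790), 2509 (2325 to 2704), 2351 (2009 to 2735) and 2796 (2667 to 2929) CPM in neutrophils and at 382 (327 to 443), 322 (299.99 to 345), 305 (270.01 to 343) and 339 (314 to 366) CPM in mononuclear phagocytes. Unlike in gated cells, where *Hp* was 10.0-fold higher in ConA+Veh than in Naïve, its level in these classes differed by less than 2-fold between libraries, with a log2 ratio of ConA+Veh over Naïve of −0.37 (−0.62 to −0.10) in neutrophils and −0.25 (−0.48 to 0.00) in mononuclear phagocytes. In Naïve, neutrophils carried more *Hp* per UMI than the gated cells did.

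At 1000 UMIs per cell, which left out 4, 11, 8 and 31 neutrophils, *Hp* was found in 88.9% (65.3 to 98.6%), 79.8% (69.6 to 87.7%), 66.7% (46.0 to 83.5%) and 85.6% (80.3 to 90.0%) of neutrophils, against 0.188%, 0.256%, 0% and 9.24% of B cells at the same depth, of which 31, 68, 40 and 37 were left out. Before thinning the median neutrophil had 1950.5, 2339, 1741 and 2141 UMIs and the median B cell 2133.5, 4200, 3419 and 3613. In ConA+TCDD neutrophils had 168 *Hp* UMIs and 0 of *Alb*, *Apoa1*, *Saa1* and *Saa2*, and mononuclear phagocytes had 278 *Hp* UMIs and 0 of *Alb*. The level of 3 UMIs in this library is 42.0 CPM in neutrophils and 3.29 CPM in mononuclear phagocytes. Both are far below the *Hp* levels of 2351 and 305 CPM, so *Alb* at the level of *Hp* would have been found there.

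*Saa3* was at 28.8 (15.4 to 49.3), 249 (229.6 to 269), 105 (85.3 to 129) and 226 (206 to 248) CPM in mononuclear phagocytes, in which it was higher in ConA+Veh than in Naïve by 3.11 (2.32 to 4.03) on the log2 scale. *Saa1* in the same cells was at 0, 9.58, 1.10 and 52.2 CPM. In ConA+FICZ, *Saa3* per *Alb* UMI was higher there than in gated cells by 5.71 (5.29 to 6.13) and *Hp* by 3.79 (3.39 to 4.20), while the other 7 members differed by 0.18 to 0.99. Against ConA+Veh the *Saa3* ratio was −1.24 (−1.57 to −0.93) in ConA+TCDD, which turned to 0.97 under a stricter class rule, and −0.14 (−0.32 to 0.04) in ConA+FICZ. Neutrophils had 0, 0, 1 and 62 *Saa3* UMIs. Their *Saa3* per *Alb* UMI in ConA+FICZ was above that of gated cells by 2.63 (2.12 to 3.14). Of these 62 UMIs 34 lay in 3 cells, and 23 of the 247 neutrophils had any.

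*Saa3* was also found in stromal cells, marked by *Dcn* and collagen genes, of which there were 2, 13, 12 and 2. They held 0, 538, 345 and 657 *Saa3* UMIs, with 0, 5619 (5154 to 6114), 3380.5 (3033 to 3757) and 42061 (38906 to 45404) CPM, where 3 UMIs in Naïve would be 149 CPM. These levels were above those of the gated cells in ConA+Veh and ConA+FICZ but not in ConA+TCDD or Naïve. A single cell held 431 of the 538 in ConA+Veh, where 3 cells had any, and 650 of the 657 in ConA+FICZ, where 2 had any, and in ConA+TCDD the highest of 5 cells held 146 of the 345. *Saa1* had 0, 11, 0 and 3 UMIs and *Alb* 7, 2, 0 and 1 in the same cells, so that, in the 3 ConA libraries, *Saa3* far outnumbered both. *Orm1* per *Alb* UMI was also higher in neutrophils than in gated cells of ConA+FICZ, by 1.66 (1.24 to 2.09). *Saa1*, *Saa2*, *Hpx*, *Fgb*, *Apoa1* and *Ttr* were higher there too, by between 0.35 (*Ttr*) and 0.85 (*Hpx*), so only part of the *Orm1* difference is particular to it. *Orm1* was found in neutrophils of every library, with 1, 21, 6 and 154 UMIs, at 21.3 (0.539 to 119), 76.9 (47.6 to 118), 84.0 (30.8 to 183) and 243 (206 to 285) CPM, although all 6 UMIs of ConA+TCDD were in 1 cell. In ConA+FICZ neutrophils *Saa2* was at 269 (230 to 312) CPM.

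**Figure D5:**
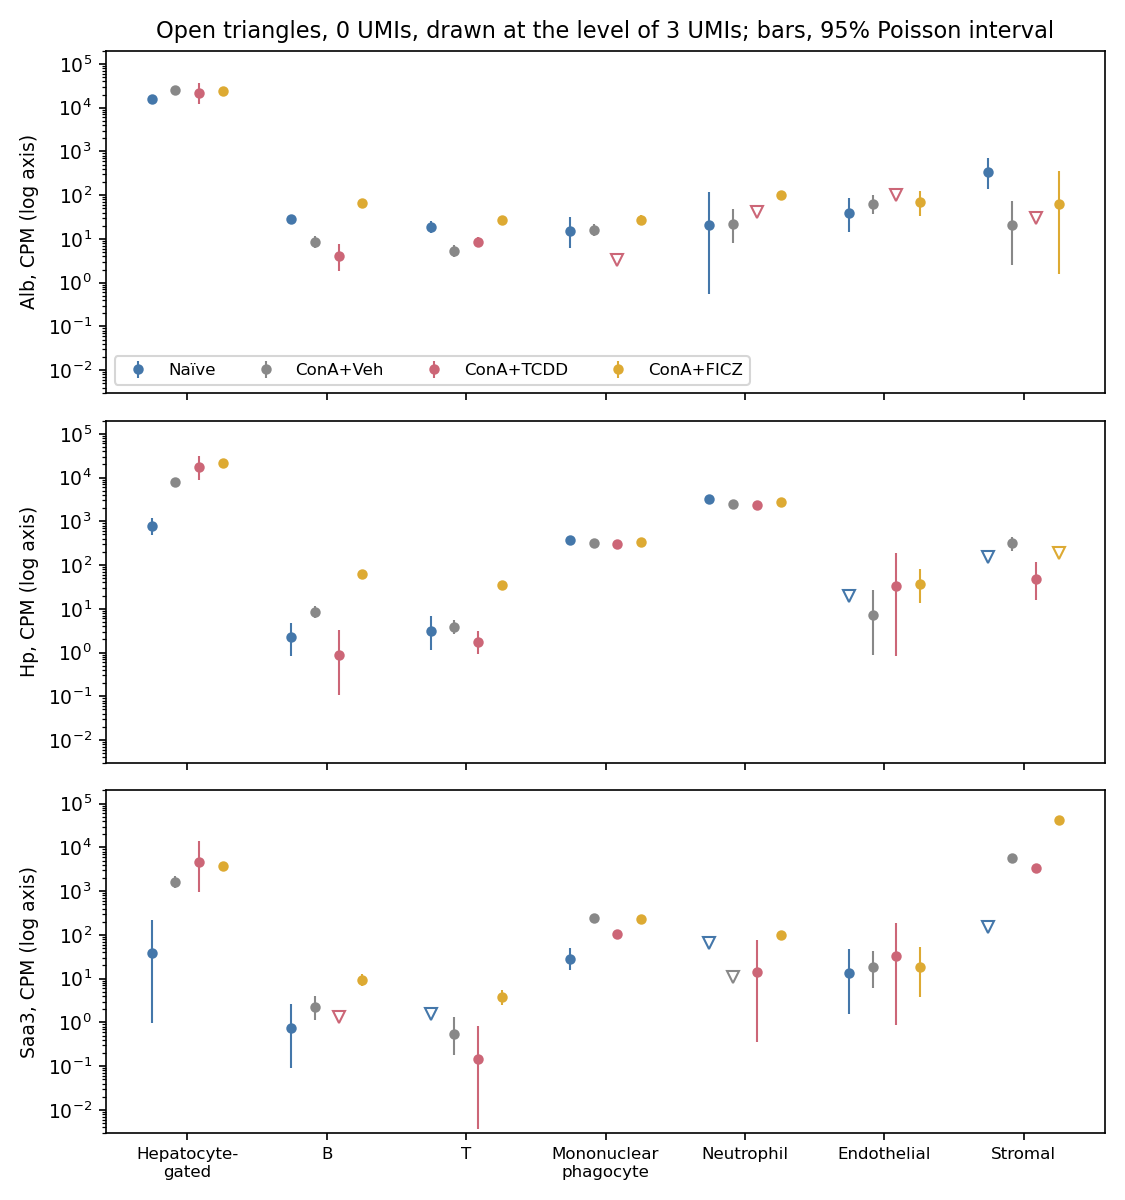
CPM (y axis, log scale) of *Alb*, *Hp* and *Saa3* (panels) in 7 cell classes (x axis) by library, with exact 95% Poisson intervals as bars and open triangles at the level of 3 UMIs where none was found. *Alb* where found is at most 99.5 CPM outside the gated cells except in the 2 Naïve stromal cells, at 347 CPM, *Hp* is at 2351 to 3233 CPM in neutrophils of every library, and *Saa3* reaches 42061 CPM in the 2 stromal cells of ConA+FICZ.

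Likeness of pattern was taken as Pearson's r of log2(CPM + 1) over 24 levels (4 libraries in 6 classes, without stromal cells) among 11787 genes, as a description, since classes of a library share its free RNA. Closest to *Saa1* were *Hamp* (0.97), *Fgg* (0.96) and *Saa2* (0.95). Closest to *Alb* were *Apoc3* (0.98), *Ttr* (0.98) and *Gc* (0.95). *Hp* had *C3* (0.87), *Msrb1* (0.84) and *Wfdc21* (0.83) nearest, and *Saa3* had *Arg1* (0.83), *P4hb* (0.82) and *Mt1* (0.82), at lower values and with no other member among them.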

How the data were processed

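The deposited values are UMI counts per gene and cell barcode, which the authors made by 5′ droplet sequencing, alignment to mm10 and counting with Cell Ranger 3.0.2, with no normalization. All 9300 deposited cells were used, with no filter and no removal of doublets. The members and gene lists were chosen with earlier results of these data known. UMIs were summed over the cells of a class and library, and the text names the 10 members, at most 4 genes of a list by UMIs in gated cells and the 3 nearest by likeness, with 1 listed gene not reported here. Exact intervals at 95% cover counting error only, a count of 0 was given the level of 3 UMIs, and a gene was called at a 2-fold difference of CPM with at least 50 UMIs in both libraries together. The difference of 2 log2 ratios has a normal interval on the log scale from its 4 counts. UMIs are 1 per molecule, so no correction for gene length was made. The fold and its interval were tested on simulated Poisson counts. These hold counting error only, so the simulation does not check the intervals against variation between cells or mice. Tables were computed in pandas 2.3.3 and numpy 2.4.6 under Python 3.11.15, intervals in scipy 1.17.1, plots in matplotlib 3.10.9 and alignments in Biopython. The alternatives are gates, class rules, weights, minimums and thinning.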

Additional observations from a re-analysis of the deposited data

How the results depend on the processing

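With 1 library per group, leaving out a replicate was not possible, and no difference has a replicate check. No paired analysis was possible because each group has 1 library. ConA+Veh minus Naïve for the acute phase ratio in gated cells, 2.96, became 3.85 and 3.92 with gates of 2% and 5%, 3.35 without gated cells with leukocyte UMIs, 1.72 with every cell weighted equally and, in alternatives chosen after the data had been seen, 3.57 without the Naïve cell with *Saa* UMIs, 3.61 without cells that have 0 mitochondrial UMIs and 2.46 without the ConA+Veh cell of the most *Saa* UMIs. ConA+FICZ minus ConA+Veh, 1.19, became 1.06 and 0.99 with those gates, 1.06 with a gate on other genes, 0.80 without cells with leukocyte UMIs, 1.52 with equal weights, 0.74 without *Saa1* and *Saa2* and 1.70 without that ConA+Veh cell. None of these changed sign. As free RNA in T cells, ConA+TCDD minus ConA+Veh, −2.43, became −3.24 under the stricter class rule and −0.77 without cells of more than 5 gate gene UMIs, the latter also chosen after the data had been seen. In neutrophils ConA+FICZ minus ConA+Veh, −2.06, turned to 0.50 (−0.66 to 1.66) without *Hp* and *Saa3*. In mononuclear phagocytes the same difference turned from −0.79 (−1.29 to −0.29) to 1.45 (0.86 to 2.04). Of single members, the log2 ratio of *Apoa1* in gated cells, ConA+Veh over Naïve, turned to −0.71 with the 5% gate, and ConA+TCDD over ConA+Veh turned to 0.37 for *Saa3* in T cells without cells over 10% mitochondrial UMIs and to 0.97 and 1.71 for *Saa3* and *Orm1* in mononuclear phagocytes under the stricter class rule. The numbers of genes past 2-fold followed the minimum of UMIs. With minimums of 20 and 200 they were 96 and 16 higher and 184 and 10 lower for ConA+Veh over Naïve, 89 and 4 higher and 11 and 7 lower for ConA+TCDD over ConA+Veh, and 538 and 106 higher and 156 and 31 lower for ConA+FICZ over ConA+Veh. Without mitochondrial and ribosomal protein genes in the totals they were 8 higher and 21 lower for ConA+TCDD and 96 lower for ConA+FICZ, both over ConA+Veh. The numbers of higher genes for ConA+TCDD can include genes with 0 UMIs in its cell, which were set at 3 UMIs. For the other changes the cause was not tested. Depth limits the ConA+TCDD hepatocyte values most, since 1 cell of 631 UMIs carries them.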
